A study of Chlamydomonas reinhardtii with 42 samples.

Results

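The transcripts of 8 genes of light perception and light signalling were followed in *Chlamydomonas reinhardtii*, a unicellular green alga. They are the photoreceptor genes PHOT1 (Cre03.g199000), UVR8 (Cre05.g230600) and CPH1 (Cre06.g295200, pCry in the list of the study), SPA1 (Cre13.g602700), Cre02.g085050, and CrCO (Cre06.g278159), NF-YB (Cre02.g079200) and NF-YC (Cre12.g556400). They were picked by identifier for their place in the light signalling pathway, and they make up 8 of the 17741 genes in the count table and 8 of the 13886 genes tested. Cre02.g085050 was picked under the name COP1, but the list of the study pairs COP1 with Cre01.g002500 and no table used here names Cre02.g085050, so it is called by its identifier and given no role.

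The study recorded how acetate and high light act on the transcriptome of the wild-type strain CC-125, in 42 RNA libraries of 14 conditions with 3 replicates each. Per the methods, cells were grown in TAP, a medium that holds acetate, and then moved to HSM, a minimal salt medium. They acclimated to HSM for a day before time 0, and both steps were under low light (LL, 5 µmol photons). The acetate cultures received 20 mM acetate at time 0, and the HSM cultures received none. Low light was sampled at 15, 240 and 1440 min. High light (HL, 300 µmol photons) began at 240 min (day 1) or 1440 min (day 2), and cells were taken after 15 and 60 min of it, so that each HL pair has the LL samples of its own start as the reference.

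Phototropin (PHOT1) and the plant-type cryptochrome (CPH1) absorb blue light, and UVR8 absorbs UV-B. In plants, UVR8 and cryptochromes act on an E3 ubiquitin ligase in which SPA proteins work with COP1, and which removes transcription factors such as CONSTANS. CrCO, the algal CONSTANS, works with the NF-Y subunits NF-YB and NF-YC at genes of photoprotection, among them LHCSR and PSBS, whose proteins help to release excess light energy as heat. Much of this pathway is set by protein stability and protein contacts, which transcript counts do not record.

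Library totals were 19232757 to 34098899 counts, with a median of 25197659, and TMM scaling factors (edgeR's correction for library composition) were 0.4542 to 1.566. The 100 most abundant genes took 36.67% to 76.35% of the counts. Scaling by library size alone in place of TMM moved the median log2 fold change (log2FC) of all genes by more than 0.1 in 29 of 34 comparisons, by between -1.40 and 1.04, so directions are given with both scalings where they differ. Of the 272 values of these 8 genes, 63 changed sign, 38 of them called under at least 1 scaling and 25 under neither, and those 25 are named only in part. Relative to the median gene, 269 of the 272 values of these 8 genes had the same sign under both scalings and differed by at most 0.0536. A change of scaling moves all genes of a comparison by nearly the same amount. This likeness therefore follows from the construction and does not show which scaling is right. The second HSM library in LL at 1440 min stood apart, with a scaling factor of 0.4542 and a mean correlation of 0.9567 with the other libraries of its condition. Without it, 81 of the 88 values that use its condition stayed on the same side of the threshold. The variance between replicate pairs was 6.221 to 149.1 times that of sampling noise (chi-square per degree of freedom over 42 pairs). These values used counts scaled by their totals and not by TMM. The largest came from the first and second HSM libraries in LL at 1440 min, whose TMM factors were 0.8625 and 0.4542. The methods of the study call the 3 samples of a condition biological replicates, while the sample labels do not say how they were kept apart, so p-values measure the spread between these samples.

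Levels are given as CPM, counts scaled to a common library size, after TMM, and all 8 genes had at least 39 counts in every library. The widest spans over the 14 conditions belonged to SPA1, with a highest mean 12.7 times its lowest, and Cre02.g085050, with 11.6 times. CrCO spanned 5.46-fold, NF-YC 4.45-fold, CPH1 2.84-fold, NF-YB 2.80-fold, PHOT1 2.69-fold and UVR8 2.2-fold. Of the 13886 genes tested, 76.9% had a smaller span than SPA1 and 2.73% a smaller span than UVR8. The highest mean was that of HSM after 15 min of HL on day 2 for 6 of the 8 genes, the exceptions being UVR8, highest in acetate after 60 min of HL on day 2, and CPH1, highest in acetate at 15 min in LL. This order is that of TMM: with library-size scaling that HSM condition was highest for none of the 8, PHOT1, CrCO, NF-YB and UVR8 being highest in acetate after 15 min of HL on day 1, Cre02.g085050 in acetate after 15 min on day 2, SPA1 and NF-YC in HSM after 15 min on day 1, and CPH1 again in acetate at 15 min in LL. When the 14 conditions of a gene were put in order of mean level, between 7 and 11 of the 13 neighbouring pairs had overlapping libraries. Most single steps in that order therefore lay within the replicate spread.

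**Figure D1:**
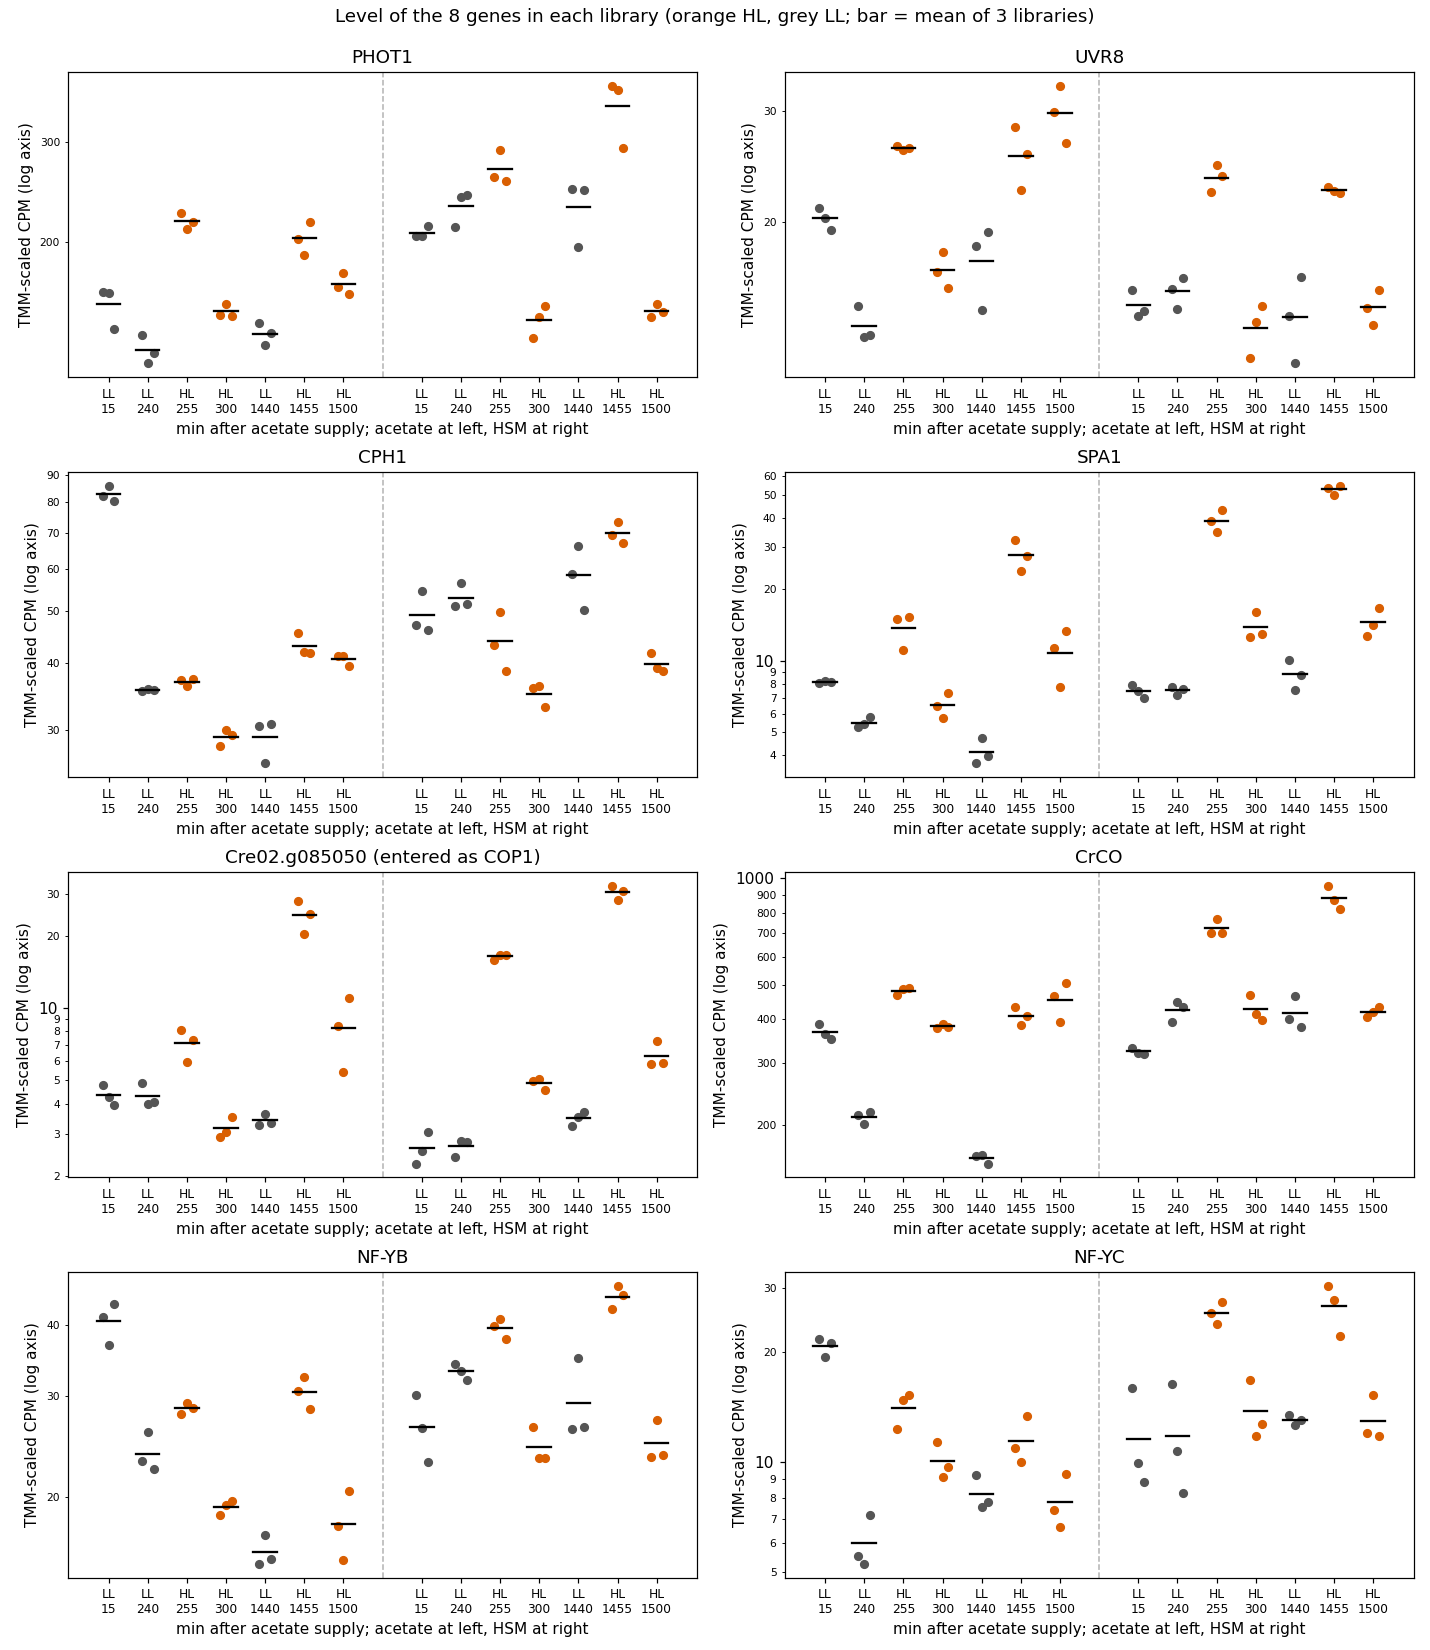
Level of each gene in CPM after TMM (log axis) in all 42 libraries, acetate left and HSM right within each gene, with LL in grey and HL in orange. Points are libraries and bars are means of 3, and the libraries of HSM after 15 min of HL stand highest for SPA1, at 34.8 to 54.4 CPM with TMM.

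SPA1 and Cre02.g085050 had the largest HL responses of the 8 genes in HSM and on average. After 15 min of HL in HSM on day 1, SPA1 had 38.7, 34.8 and 42.9 CPM, against 7.78, 7.15 and 7.63 CPM in LL at 240 min. On day 2 it had 53.4, 49.9 and 54.4 CPM, against 10.07, 7.58 and 8.73 CPM in LL at 1440 min. The groups did not overlap on either day, and the log2FC was 2.37 ± 0.16 (SE) on day 1 and 2.57 ± 0.16 on day 2 (edgeR's quasi-likelihood test, Benjamini-Hochberg adjusted p = 1.91e-15 and 4.59e-16). In acetate the HL libraries had 15.0, 11.09 and 15.3 CPM on day 1, against 5.25, 5.44 and 5.79 CPM in LL. On day 2 in acetate they had 32.1, 23.8 and 27.7 CPM, against 3.70, 4.72 and 3.97 CPM in LL. Again no libraries overlapped, with log2FC of 1.33 ± 0.16 on day 1 and 2.76 ± 0.16 on day 2. In a culture sampled whole, a transcript made by fewer cells and one less abundant in each cell cannot be told apart.

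After 60 min of HL, SPA1 was still above LL in HSM, with log2FC of 0.88 ± 0.15 on day 1 and 0.71 ± 0.16 on day 2. In acetate the value after 60 min was 0.25 ± 0.16 on day 1, not past the threshold, and 1.39 ± 0.16 on day 2. On day 1 the acetate libraries at 60 min had 6.47, 5.74 and 7.33 CPM, against 5.25, 5.44 and 5.79 CPM in LL. Of those HL libraries, 1 lay within the LL range.

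Cre02.g085050 followed a similar course from a low start. After 15 min of HL in HSM on day 1 it had 15.9, 16.7 and 16.7 CPM, against 2.404, 2.80 and 2.78 CPM in LL. On day 2 the HL libraries had 32.3, 28.2 and 30.8 CPM, against 3.22, 3.52 and 3.69 CPM in LL. Neither day had an overlap, and the log2FC was 2.63 ± 0.17 and 3.14 ± 0.18, the largest HL response of the 8 genes on each day in HSM (edgeR's quasi-likelihood test, Benjamini-Hochberg adjusted p = 1.70e-15 and 3.64e-17). In acetate on day 1, HL libraries had 8.11, 5.97 and 7.38 CPM, against 4.89, 4.00 and 4.06 CPM in LL, a log2FC of 0.73 ± 0.16. In acetate on day 2 they had 27.9, 20.5 and 24.7 CPM, against 3.28, 3.62 and 3.32 CPM, a log2FC of 2.84 ± 0.17. After 60 min the log2FC was 0.87 ± 0.18 in HSM on each day and 1.28 ± 0.17 in acetate on day 2. In acetate on day 1 it was -0.44 ± 0.17 (edgeR's quasi-likelihood test, Benjamini-Hochberg adjusted p = 0.0244), a call lost with library-size scaling and without the first acetate LL library at 240 min (-0.35), the first HL library at 60 min (-0.39) or the second (-0.42).

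CrCO rose after 15 min of HL in both media and on both days. In HSM it had 700.0, 767 and 702 CPM on day 1, against 392, 448 and 433 CPM in LL. On day 2 it had 952, 867 and 820.2 CPM, against 401, 463 and 380.5 CPM in LL. No library of HL reached down to LL, and the log2FC was 0.77 ± 0.10 and 1.08 ± 0.11. In acetate CrCO had 469, 487 and 489.5 CPM in HL on day 1, against 214, 201 and 218 CPM in LL, and the log2FC was 1.19 ± 0.11. On day 2 it had 432, 384 and 408 CPM, against 164, 164 and 156 CPM, with a log2FC of 1.34 ± 0.11. All 4 of these rises passed the threshold with both scalings. At 60 min the media parted. In acetate CrCO was still higher in HL, with log2FC of 0.85 ± 0.10 on day 1 and 1.49 ± 0.11 on day 2, whereas in HSM the values were 0.0042 ± 0.10 and 0.014 ± 0.10, not past the threshold (with library-size scaling both passed it as higher).

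NF-YC, the partner subunit, had 25.6, 23.8 and 27.4 CPM after 15 min of HL in HSM on day 1, against 16.4, 10.8 and 8.22 CPM in LL. On day 2 it had 30.3, 27.7 and 22.1 CPM, against 13.5, 12.6 and 13.1 CPM in LL. All HL libraries lay above all LL libraries on both days, with log2FC of 1.12 ± 0.19 and 1.03 ± 0.20. In acetate its 15-min log2FC was 1.23 ± 0.20 on day 1 (14.1 ± 1.58 CPM in HL, against 6.00 ± 1.03 CPM in LL, SD over 3 libraries, without overlap). On day 2 in acetate it was 0.48 ± 0.20 (edgeR's quasi-likelihood test, Benjamini-Hochberg adjusted p = 0.0315), a call lost with library-size scaling and without the second or the third LL library (0.42 and 0.44) or the third HL library (0.35). After 60 min of HL, NF-YC was past the threshold only in acetate on day 1, at 0.74 ± 0.20 with TMM, but without the first LL library at 240 min the HSM value of day 1 was 0.54 and past it too.

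The other NF-Y gene, NF-YB, changed little after 15 min of HL on day 1. In HSM on day 1, NF-YB had 39.8, 41.0 and 37.8 CPM after 15 min of HL, against 34.2, 33.3 and 32.1 CPM in LL. Though no libraries overlapped, the log2FC of 0.25 ± 0.11 (edgeR's quasi-likelihood test, Benjamini-Hochberg adjusted p = 0.0428) fell short of the threshold without any 1 of 5 of the 6 libraries, and the acetate value of 0.26 ± 0.11 did the same. The exception was the third HL library in HSM and the second LL library in acetate. After 15 min on day 2 NF-YB had 42.6, 46.7 and 45.1 CPM in HSM, against 26.3, 35.0 and 26.5 CPM in LL, and 30.6, 32.4 and 28.5 CPM in acetate, against 15.3, 17.1 and 15.6 CPM in LL. These rises of 0.62 ± 0.11 and 0.93 ± 0.11 passed the threshold with both scalings. At 60 min on day 1 it fell by 0.44 in HSM and by 0.31 in acetate with TMM, and the acetate call was lost without the second LL library (-0.24) or the first HL library (-0.29). With library-size scaling the HSM value was 0.053, on the other side of 0.

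Among the photoreceptors, UVR8 rose after 15 min of HL in each of the 4 settings. In HSM on day 1 it had 22.3, 24.6 and 23.6 CPM in HL, against 15.6, 14.5 and 16.3 CPM in LL. In acetate on day 1 it had 26.3, 26.0 and 26.1 CPM, against 14.7, 13.1 and 13.18 CPM in LL. The groups were apart in each, and the log2FC was 0.60 ± 0.11 in HSM and 0.94 ± 0.11 in acetate on day 1, and 0.66 ± 0.12 in HSM and 0.55 ± 0.11 in acetate on day 2. With library-size scaling only the acetate value of day 1 passed the threshold. In acetate after 60 min of HL on day 2, UVR8 had 29.9, 32.9 and 26.7 CPM, against 18.3, 14.5 and 19.2 CPM in LL, a log2FC of 0.78 ± 0.11 with TMM and 0.24, not past the threshold, with library-size scaling. Scaled by library size, the HL libraries had 25.9, 38.0 and 22.9 CPM, against 28.2, 18.5 and 26.8 CPM in LL, and the groups overlapped.

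PHOT1 gave opposite signs at the 2 times in HSM. After 15 min of HL on day 2 it had 377, 370.4 and 293 CPM, against 248, 196 and 247 CPM in LL, a log2FC of 0.59 ± 0.11. After 60 min on that day it had 147, 156 and 150.1 CPM, a log2FC of -0.61 ± 0.11 against the same LL libraries. All HL libraries were above LL at 15 min and all were below it at 60 min. With library-size scaling the 60-min value was 0.20, so that fall is one relative to the median gene. In HSM on day 1 the values were 0.22 ± 0.10, not past the threshold, at 15 min and -0.67 ± 0.11 at 60 min. In acetate PHOT1 rose at 15 min, by 0.76 ± 0.11 on day 1 and 0.56 ± 0.11 on day 2. With library-size scaling the 15-min values of day 2 were 0.37 in HSM and 0.11 in acetate, and the 60-min value of day 1 in HSM was -0.17, none past the threshold, whereas the acetate value of day 1 at 15 min held. At 60 min in acetate it was 0.23 ± 0.10 on day 1, not past the threshold, and 0.29 ± 0.10 on day 2, where library-size scaling gave -0.26 and leaving out the second LL library gave 0.26, not past it.

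CPH1 had called values of both signs. In HSM its log2FC was -0.27 ± 0.10 after 15 min and -0.60 ± 0.10 after 60 min on day 1, and 0.26 ± 0.10 and -0.55 ± 0.10 at these times on day 2. The 15-min values rest on single libraries: without the third HL library the day 1 value was -0.087, without the second LL or the first HL library it was -0.23 or -0.24, and the day 2 value was 0.16 without the third LL library and 0.23 without the second HL library, none past the threshold. In acetate CPH1 had 45.6, 41.99 and 41.9 CPM after 15 min of HL on day 2, against 30.5, 26.0 and 30.8 CPM in LL, with no overlap and a log2FC of 0.57 ± 0.10. With library-size scaling that value was 0.11, and those in HSM at 60 min on day 1 and at 15 min on day 2 were -0.097 and 0.099, none past the threshold. At 60 min on day 2 the acetate value was 0.48 ± 0.10 with TMM and -0.074 with library-size scaling, and the HSM value of -0.55 became 0.33.

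Counted by comparison, HL against LL at 15 min moved 7 of the 8 genes past the threshold in HSM on day 1 (6 higher, 1 lower), where 69.9% of all genes tested passed it. In acetate on day 1, 7 were higher and none lower (58.6% of all genes). All 8 were higher on day 2 in HSM (71.2%) and in acetate (67.7%). These shares, like those below, hold genes called in either direction. Of the 13886 genes tested, 4822, 4290, 4581 and 4503 were higher at 15 min in the order given. At 60 min the counts were 2 higher and 3 lower in HSM on day 1 (65.4%), 3 and 3 in acetate on day 1 (51.8%, and 2 genes in all without the first HL library), 2 and 2 in HSM on day 2 (68.9%) and 6 and 0 in acetate on day 2 (76.2%). With library-size scaling the counts of higher and lower genes at 15 min were 4 and 1, 6 and 0, 5 and 0, and 4 and 0 in the same order, and at 60 min 4 and 0, 3 and 0, 6 and 0, and 3 and 2. With that scaling 8678, 6628, 9109 and 9248 of all genes were called at 15 min, and 42%, 55.7%, 38% and 26.7% of these were higher. At 60 min 9186, 6300, 10378 and 10095 were called, and 81%, 72.6%, 85% and 32.9% of these were higher. The median log2FC of the 8 genes at 15 min was 0.68 in HSM and 0.85 in acetate on day 1, where the median of all genes was -0.028 and 0.0085. On day 2 it was 0.85 in HSM and 0.75 in acetate, where the median of all genes was -0.15 and -0.076.

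Averaged over the 8 HL comparisons, 7 genes were higher and none lower with both scalings. With TMM 83.3% of all genes passed the threshold, 5629 of them higher and 5939 lower. Library-size scaling called 10925, and 50.5% of these were higher. The average log2FC was 1.53 ± 0.07 for SPA1, 1.49 ± 0.08 for Cre02.g085050, 0.84 ± 0.05 for CrCO, 0.59 ± 0.09 for NF-YC and 0.46 ± 0.05 for UVR8. CPH1 stood at -0.043 ± 0.04. PHOT1 at 0.17 ± 0.05 and NF-YB at 0.16 ± 0.05 depended on single libraries: without the second HSM library in LL at 1440 min PHOT1 was at 0.079 (edgeR's quasi-likelihood test, Benjamini-Hochberg adjusted p = 0.0859), and NF-YB was at 0.073 to 0.090 without the first HSM library of HL on day 1 at 15 min, the third HSM library in LL at 1440 min, or the second or the third HSM library of HL on day 2 at 15 min. The comparisons at 15 and 60 min of 1 day share their LL libraries.

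**Figure D2:**
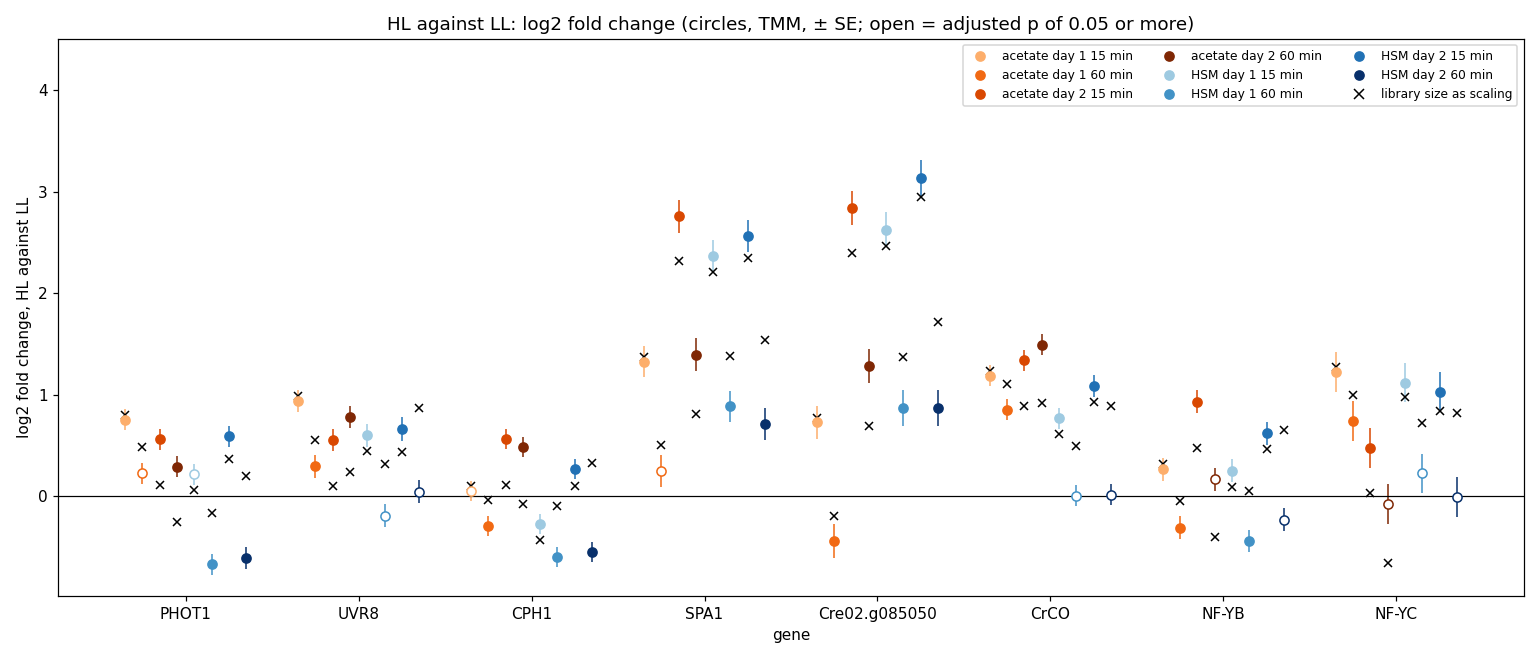
Response to HL as log2FC against LL for each gene in the 8 comparisons (HSM and acetate, day 1 and 2, 15 and 60 min). Circles are TMM values with their SE, open where not past the threshold, and black crosses are library-size values, which turn the sign at 60 min for NF-YB and, called under neither scaling, UVR8 in HSM on day 1, for PHOT1, CPH1, NF-YB and NF-YC in HSM on day 2 and for PHOT1, CPH1 and NF-YB in acetate on day 2, while SPA1, Cre02.g085050 and CrCO stay above 0 at 15 min.

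From 15 to 60 min of HL, transcripts of all 8 genes went down relative to the median gene in 3 of the 4 settings. All 8 passed the threshold as lower at 60 min in HSM on day 1 (65% of all genes tested passed it), in acetate on day 1 (61.1%) and in HSM on day 2 (72.3%), and in acetate on day 2, 5 were lower and none higher (63%). Of the 13886 genes tested, 4260, 4345, 4694 and 3742 were lower in these settings. With library-size scaling 2, 3, 2 and 4 genes were lower and none was called higher, but CPH1 in HSM gave 0.33 on day 1 and 0.23 on day 2, and UVR8 (0.43) and NF-YB (0.19) also turned to the other side of 0 in HSM on day 2. That scaling called 9328, 7084, 10616 and 7310 of all genes, and 84.8%, 64.3%, 88.1% and 51.6% of these were higher. The day 1 calls of CPH1 in HSM (-0.22 without the second library at 15 min) and of NF-YC in acetate (-0.39 to -0.46 without the second or the third library at either time) rested on single libraries. SPA1 and Cre02.g085050 fell with both scalings in all 4 settings. SPA1 had 12.8, 14.21 and 16.7 CPM at 60 min in HSM on day 2, against 53.4, 49.9 and 54.4 CPM at 15 min, a log2FC of -1.85 ± 0.15. Cre02.g085050 had 5.84, 7.28 and 5.92 CPM, against 32.3, 28.2 and 30.8 CPM, a log2FC of -2.26 ± 0.16. Both genes thus had no overlap between the times. In acetate on day 2, UVR8 (0.23 ± 0.11), CrCO (0.15 ± 0.10) and CPH1 (-0.085 ± 0.10) were not past the threshold, and the calls of PHOT1 (-0.27 ± 0.10) and NF-YC (-0.56 ± 0.20) were lost without any 1 of 3 libraries each. For PHOT1 these were the third library at 15 min (-0.22) and the first (-0.26) and the third (-0.24) at 60 min. For NF-YC they were the third at 15 min (-0.43) and the first (-0.52) and second (-0.46) at 60 min.

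The response to acetate changed with time. At 15 min after acetate was given, in LL, 5 of the 8 genes were higher and 1 lower than in HSM, where 74% of all genes tested passed the threshold. CPH1 had 82.2, 85.8 and 80.4 CPM with acetate, against 47.1, 54.6 and 46.1 CPM in HSM, a log2FC of 0.75 ± 0.10 (edgeR's quasi-likelihood test, Benjamini-Hochberg adjusted p = 2.51e-08). NF-YC, at 0.85 ± 0.20, Cre02.g085050, at 0.73 ± 0.19, NF-YB, at 0.61 ± 0.11, and UVR8, at 0.46 ± 0.11, were also higher, and PHOT1 was lower at -0.42 ± 0.11. With library-size scaling 4 were higher and 1 lower, where 9428 of all genes were called and 43.2% of these were higher.

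By 240 min in LL, 1 gene was higher and 6 lower with acetate (64.8% of all genes). CrCO had 214, 201 and 218 CPM with acetate, against 392, 448 and 433 CPM in HSM, a log2FC of -1.01 ± 0.10. CPH1 had 35.5, 35.8 and 35.6 CPM, against 51.0, 56.4 and 51.6 CPM, a log2FC of -0.57 ± 0.10. No libraries overlapped for either gene, so that CPH1 had the other sign from 15 min with TMM. Cre02.g085050, the only gene higher at this time, had 4.89, 4.00 and 4.06 CPM, against 2.404, 2.80 and 2.78 CPM. With library-size scaling 1 gene was higher and 1 lower at 240 min, and CPH1 was not past the threshold. Of all genes, 8572 were then called, and 73.9% of these were higher. At 1440 min in LL, 1 gene was higher and 6 lower (63.9% of all genes), led by CrCO with 164, 164 and 156 CPM with acetate, against 401, 463 and 380.5 CPM in HSM, a log2FC of -1.36 ± 0.11. UVR8 was the higher one, at 0.29 ± 0.11, and its call was lost without the first (0.29) or second (0.25) HSM library or the first (0.25) or the third (0.21) acetate library. With library-size scaling 2 genes were higher and none lower at that time, and PHOT1 (0.21), CPH1 (0.027), NF-YB (0.17), NF-YC (0.32) and Cre02.g085050 (-0.024 with TMM, 0.97 with library-size scaling) turned to the other side of 0. Of all genes, 10659 were called with that scaling, and 87.8% of these were higher.

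After 15 min of HL, acetate cultures had less of most of these transcripts than HSM cultures with TMM. At this time none of the 8 was higher, and 7 were lower on day 1 (65.4% of all genes) and 6 on day 2 (70.9%). SPA1 on day 1 had 15.0, 11.09 and 15.3 CPM with acetate, against 38.7, 34.8 and 42.9 CPM in HSM, a log2FC of -1.49 ± 0.15 (edgeR's quasi-likelihood test, Benjamini-Hochberg adjusted p = 1.08e-10). Cre02.g085050 on day 1 was at -1.20 ± 0.16, and on day 2 at -0.32 ± 0.15, not past the threshold. On day 2 NF-YC had 10.9, 10.0 and 13.37 CPM with acetate, against 30.3, 27.7 and 22.1 CPM in HSM, a log2FC of -1.22 ± 0.20. With library-size scaling the counts of higher and lower genes were 2 and 2 on day 1, where PHOT1 (0.33), CPH1 (0.39), CrCO (0.052) and NF-YB (0.18) changed sign, and 1 and 1 on day 2, where CPH1 (0.036), NF-YB (0.18) and Cre02.g085050 (0.42) did. Of all genes, that scaling called 9314 on day 1 and 10350 on day 2, and 81.4% and 76.9% of these were higher. On day 1 the calls of CPH1 (-0.15) and PHOT1 (-0.25) were lost without the second HSM library, and that of CPH1 (-0.24) without the second acetate library. The falls of SPA1 and Cre02.g085050 on day 1 held with both scalings.

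After 60 min of HL, 1 gene was higher and 5 lower with acetate on day 1 (50.2% of all genes), and 2 were higher and 3 lower on day 2 (74%). UVR8 had 29.9, 32.9 and 26.7 CPM with acetate on day 2, against 14.6, 13.7 and 15.6 CPM in HSM, with no overlap and a log2FC of 1.03 ± 0.11. NF-YB, at -0.47 ± 0.11, and NF-YC, at -0.74 ± 0.20, were lower on that day. SPA1 was at -0.43 ± 0.15 but at -0.32 without the third HSM library and -0.24 without the second acetate library, and Cre02.g085050 was at 0.39 ± 0.16 but at 0.33 and 0.34 without the first or the third HSM library and at 0.37 and 0.13 without the first or the third acetate library, none of these past the threshold. Among the day 1 calls, CPH1, NF-YB, NF-YC and UVR8 each lost theirs without the first HSM library, at -0.25, -0.29, -0.28 and 0.23, and CPH1, NF-YC and UVR8 without other single libraries too. Without that library 2 of the 8 genes were called on day 1. With library-size scaling none was higher and 1 lower on day 1, and 1 was higher and 3 lower on day 2, where Cre02.g085050 changed sign to -0.063, and PHOT1 (0.16 with TMM), CPH1 (0.029) and CrCO (0.12), called under neither scaling, to -0.24, -0.38 and -0.31. Of all genes, that scaling called 5069 on day 1 and 9820 on day 2, and 65.2% and 33.8% of these were higher.

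Averaged over the 7 times, acetate gave 1 gene higher and 6 lower with TMM (85% of all genes passed the threshold), but 2 higher and 3 lower with library-size scaling. Of all genes, 5665 were higher and 6143 lower with TMM. Library-size scaling called 11225, and 67.1% of these were higher. The falls of SPA1 (-0.77 ± 0.06), NF-YC (-0.58 ± 0.07) and CrCO (-0.56 ± 0.04) and the rise of UVR8 (0.32 ± 0.04) held with both scalings. PHOT1 (-0.41 ± 0.04), NF-YB (-0.37 ± 0.04) and CPH1 (-0.29 ± 0.04) were lower with TMM, and with library-size scaling they stood at -0.061, -0.0074 and 0.075. Cre02.g085050 was at -0.050 ± 0.06 with TMM and at 0.30 with library-size scaling.

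**Figure D3:**
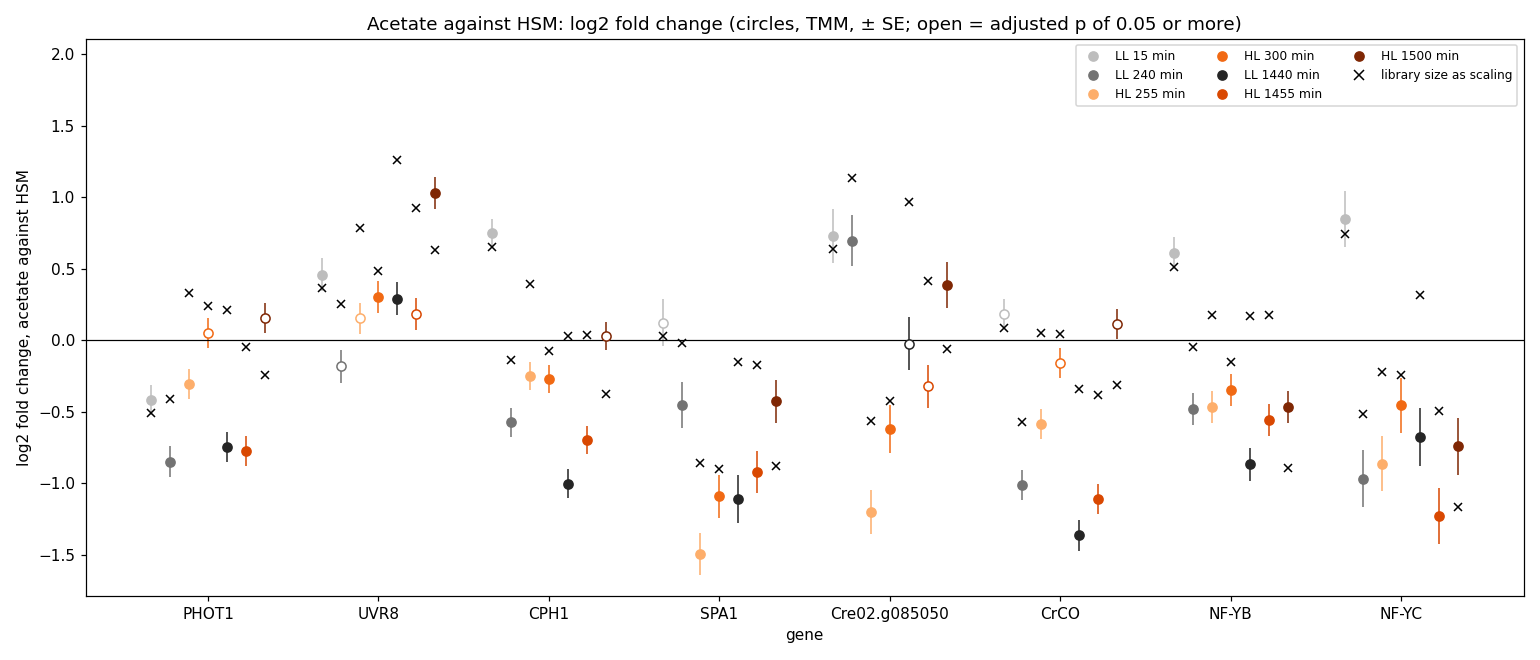
Response to acetate as log2FC against HSM for each gene at the 7 sampled times in LL and HL. Circles are TMM values with their SE, open where not past the threshold, and black crosses are library-size values, which lie on the other side of 0 for CPH1 in LL at 1440 min and on each day at 15 min of HL, for NF-YB likewise, for PHOT1 in LL at 1440 min and after 15 min of HL on day 1, for NF-YC and Cre02.g085050 in LL at 1440 min, for CrCO after 15 min of HL on day 1 and for Cre02.g085050 after 60 min of HL on day 2, and, called under neither scaling, for UVR8 in LL at 240 min, for Cre02.g085050 after 15 min of HL on day 2, for CrCO after 60 min of HL on both days and for PHOT1 and CPH1 after 60 min on day 2.

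In low light alone the genes differed little between 1440 and 240 min in HSM. None of the 8 passed edgeR's threshold (20.5% of all genes did), none had an unadjusted p under 0.05, and DESeq2 and limma-voom called none. Without the second library at 1440 min, NF-YB was called at -0.35. With library-size scaling 2 of the 8, CrCO and NF-YB, were called lower, where 4246 of all genes were called and 9.23% of these were higher. In acetate 1 was higher and 4 lower at 1440 min (52.2% of all genes). CrCO had 164, 164 and 156 CPM at 1440 min, against 214, 201 and 218 CPM at 240 min, a log2FC of -0.39 ± 0.10, and NF-YB was at -0.57 ± 0.11. UVR8 (0.34 ± 0.11) was the higher gene, and CPH1 (-0.29 ± 0.10) and SPA1 (-0.42 ± 0.16) the other lower ones. These last calls were lost without 1 library, the third at 1440 min for UVR8 (0.26), the second at 1440 min for CPH1 (-0.22), and for SPA1 the second (-0.42) or the third (-0.38) at 240 min or the first (-0.34) or the third (-0.39) at 1440 min. With library-size scaling none was higher and 1 was lower, where 5323 of all genes were called and 56.5% of these were higher.

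The HL response was next compared between media, as the acetate response minus the HSM response. After 15 min on day 1, 2 genes responded more and 2 less in acetate (29% of all genes differed), and 2 differed in all without the first or the third HSM or the third acetate HL library. Cre02.g085050 differed by -1.90 ± 0.24 (edgeR's quasi-likelihood test, Benjamini-Hochberg adjusted p = 2.07e-07) and SPA1 by -1.04 ± 0.22. With library-size scaling only Cre02.g085050 (-1.70) was called, and SPA1 (-0.84), PHOT1 (0.74) and CrCO (0.62) were not past the threshold. Of all genes, that scaling called 2421, and 67.2% of these were higher. At 60 min on day 1, 3 responded more and 2 less (35.1%). With library-size scaling 1 responded more and 2 less, where 3609 of all genes were called and 25.9% of these were higher. After 15 min on day 2, none of the 8 differed by edgeR (35.9% of all genes did), 1 had an unadjusted p under 0.05, and DESeq2 and limma-voom called none, though CPH1 was called at 0.38 without the third HSM library in LL at 1440 min. At 60 min on day 2, 6 responded more and none less in acetate (61.3%), with CrCO at 1.48 ± 0.15 and CPH1 at 1.03 ± 0.14. None of these 6 held with library-size scaling, which gave 0.031 for CrCO, not past the threshold, and negative values for PHOT1 (-0.46), UVR8 (-0.63), CPH1 (-0.40), SPA1 (-0.73) and NF-YB (-1.06). Cre02.g085050, not called with TMM, was at -1.03 with that scaling. Of all genes, 10209 were then called, and 7.81% of these were higher.

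Between days, as day 2 minus day 1, the HL response in HSM differed for 1 gene at 15 min (11.21% of all genes), CPH1 at 0.54 ± 0.14, and without the third LL library at 1440 min it was 0.42 and not past the threshold. A second gene was called without the second LL library at 1440 min (NF-YB, 0.50) or the third HL library of day 2 (PHOT1, 0.46). At 60 min in HSM none of the 8 differed by edgeR (6.071% of all genes did), none had an unadjusted p under 0.05, and DESeq2 and limma-voom called none. In acetate 4 genes responded more and 1 less on day 2 at 15 min (36.4%), and 6 more and 1 less at 60 min (63.3%). Cre02.g085050 differed by 2.11 ± 0.23 at 15 min and 1.73 ± 0.24 at 60 min, and SPA1 by 1.43 ± 0.22 and 1.147 ± 0.22. NF-YC was the gene with the lower response on day 2 in acetate, at -0.75 ± 0.28 and -0.82 ± 0.28. The 15-min value of NF-YC was lost without any 1 of 7 of the libraries, at between -0.65 and -0.71. With library-size scaling UVR8 (-0.32), CPH1 (-0.040), CrCO (-0.19), NF-YB (-0.35) and PHOT1 (0.064 with TMM, -0.74 with library-size scaling) had the other sign at 60 min in acetate. SPA1 was then at 0.31, not past the threshold. At 15 min in acetate CPH1 (0.0091) and NF-YB (0.16) were not past it with that scaling, and UVR8 was called lower at -0.88.

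The acetate response itself, as day 2 minus day 1, differed for 1 gene upward and 3 downward in LL (40.3% of all genes), for 2 upward and 3 downward after 15 min of HL (39.7%) and for 3 upward after 60 min of HL (55.1%). The count fell to 2 in LL without the second or the third HSM library at 1440 min, and to 2 after 15 min of HL without the first HSM library of day 1 or the second of day 2. Cre02.g085050 was among the called genes in all 3, at -0.72 ± 0.26 in LL, 0.88 ± 0.21 after 15 min of HL and 1.01 ± 0.23 after 60 min of HL. In LL its value was -0.63 without the second HSM library at 1440 min, with a Benjamini-Hochberg adjusted p of 0.0736 in the edgeR model. It was also lost in LL without the third HSM library at 1440 min (-0.59) or the first libraries of HSM (-0.65) and acetate (-0.62) at 240 min. CPH1 in LL was at -0.43 with TMM and 0.16, not past the threshold, with library-size scaling. With that scaling Cre02.g085050 was past the threshold only after 15 min of HL (0.98), and was at -0.17 in LL and 0.36 after 60 min. UVR8 (0.14) and SPA1 (0.024) were not past it after 60 min either. The counts of higher and lower genes were then 1 and 0 in LL, 1 and 0 after 15 min and 0 and 2 after 60 min. Of all genes, 7230 were called after 60 min, and 21% of these were higher.

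Further genes of the pathway were counted from lists based on the study's list of photoprotection genes. Among 12 other genes listed with the photoreceptors, the HL average gave 2 higher and 8 lower (83.3% of all genes passed the threshold), and the acetate average none higher and 11 lower (85% of all genes). CRY-DASH1, a DASH-type cryptochrome, was at 1.5 for HL, and CHR1/COP3, the gene of a channelrhodopsin of the eyespot, at -1.03 for HL and -1.35 for acetate. COP9 was at -1.51 for acetate, and Cre01.g002500, which carries the name COP1 in the list of the study and is described there as an E3 ligase, at -1.49 for acetate and -0.18 for HL. The medians of this list were -0.46 for HL and -0.99 for acetate.

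Of 4 genes listed with the E3 ligase (CUL4, DDB1, DET1 and UBC17), 3 were higher and none lower for HL (83.3% of all genes called). For acetate 2 were higher and 2 lower (85%). Cre01.g002500 was counted in the list above and not in this one. DET1, which in plants joins a CUL4 and DDB1 ligase, averaged 18.3 ± 1.5 CPM after 15 min of HL in HSM on day 1 (SD, n = 3), against 1.04 ± 0.309 CPM in LL, and 28.8 ± 2.24 CPM on day 2, against 1.31 ± 0.681 CPM in LL. The ranges were apart on both days, with log2FC of 4.12 and 4.38. UBC17, an E2 enzyme that hands ubiquitin to such ligases, was at 1.08 for HL and 1.28 for acetate, and DDB1 was at -1.34 for acetate.

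Of 7 other CCAAT-binding and CONSTANS-like genes, 5 were tested. For HL 3 were higher and 2 lower (83.3% of all genes called), and for acetate 4 were higher and none lower (85%). Cre04.g226400 was at -1.02 for HL and 0.95 for acetate, and Cre16.g675100, a CONSTANS-like gene in the list of the study, at -0.51 and 2.56. The median over the tested genes was 0.16 for HL and 0.91 for acetate.

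The 11 genes listed downstream, of LHCSR, PSBS and early light-inducible (ELI) proteins and the clock factor ROC75, gave 9 higher and 2 lower for HL (83.3% of all genes called), and 5 higher and 6 lower for acetate (85%). LHCSR3.1 was at 6.92 for HL and -5.02 for acetate, LHCSR3.2 at 6.69 and -4.77, and PSBS2 at 6.63 and -1.07. LHCSR3.1 and LHCSR3.2, like the PSBS pair, are near-identical copies between which reads may be divided, so their separate values are uncertain. With TMM the list medians were 2.06 for HL and -0.39 for acetate, and those of the 8 genes were 0.53 and -0.39. The medians of all genes tested were -0.032 and -0.046 with TMM, and 0.0056 and 0.31 with library-size scaling.

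The 8 genes differed in how alike their profiles were, measured as Pearson's r of the mean log2 CPM over the 14 conditions. These conditions share media, light and times, and every library carries its own scaling factor for all genes, so r is a description only. SPA1 and Cre02.g085050 were the most alike pair, with r = 0.91 over 14 condition means and 0.91 over the 42 libraries. SPA1 and CrCO had 0.86, NF-YB and NF-YC 0.83, CPH1 and NF-YB 0.80, and CrCO and PHOT1 0.78. UVR8 and CPH1 were least alike, at 0.12. UVR8 had no r above 0.67 with any other gene of the 8.

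**Figure D4:**
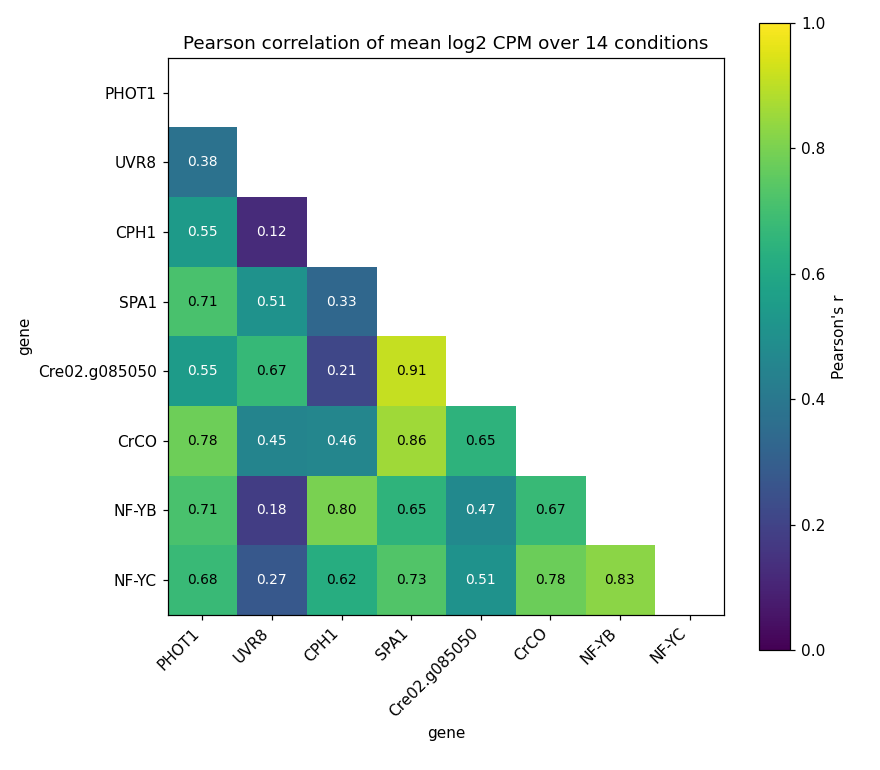
Pearson's r of mean log2 CPM over the 14 condition means for each pair of the 8 genes. The values run between 0.12 for UVR8 with CPH1 and 0.91 for SPA1 with Cre02.g085050.

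Among all 13886 genes tested, the profile most like that of SPA1 was Cre07.g315150 (r = 0.97 over 14 condition means), followed by Cre01.g055151 and Cre08.g358540. For Cre02.g085050 the nearest were Cre07.g356800 (0.95) and then DET1 (0.95), then Cre17.g715700. CrCO was nearest to Cre06.g294850 (0.96), followed by Cre03.g193400 and Cre13.g563006, and UVR8 to Cre10.g440450 (0.94), followed by Cre13.g564900 and Cre11.g467709. For NF-YB these were Cre12.g514100 (0.94), Cre03.g198851 and Cre12.g493903, for CPH1 Cre16.g658526 (0.93), Cre14.g617650 and Cre10.g417700, and for PHOT1 Cre12.g521150 (0.93), Cre14.g612800 and Cre02.g142600. NF-YC had the weakest nearest gene, Cre02.g107750 (0.88), before Cre03.g206250 and Cre12.g528350. NF-YC itself stood at rank 50 of all genes in likeness to NF-YB. These neighbours depend on the measure: with Spearman's rho over the condition means 0 or 1 of the 3 genes stayed for each of the 8, and with Pearson's r over the 42 libraries 2 or 3 stayed for 6 of them, 1 for Cre02.g085050 and 0 for NF-YC.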

How the data were processed

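The 42 RNA libraries were deposited as raw counts per gene. Per the methods, the authors trimmed reads with BBduk, aligned them with STAR (version 2.5.3 per the submitters' processing notes) to the Phytozome version 5 transcriptome and counted them with HTSeq-count using reverse-strand settings. The deposited counts are not normalized. The table has 0 columns that match no sample and 0 rows without a gene. Of its 17741 identifiers, 17738 matched RefSeq, which was not used for coordinates or sequences here. Groups were taken from the sample labels, and gene names from the list of the study.

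Genes that reached 1 CPM in 9 or more libraries entered the tests (13886 of 17741; 436 had no count), and libraries were scaled by TMM. Tests used edgeR 4.0.16 (glmQLFit and glmQLFTest, R 4.3.3) in 1 model with a coefficient for each of the 14 conditions and 34 comparisons, with Benjamini-Hochberg adjustment over all genes tested and a threshold of 0.05. Profiles were compared on log2 CPM with a prior count of 2. Alternatives were RLE and library-size scaling, no filter, a filter that dropped genes under 1 CPM in 9 or more libraries, DESeq2 1.42.0, limma-voom (limma 3.58.1), blocks for replicate or culture number, fits of only the libraries compared, and leaving out each library. The edgeR fit was run on simulated counts in which a small share of genes changed in 1 condition, at a single dispersion. That setting holds no shift of library composition, so it checks the code and not the choice of scaling. Figures were drawn with matplotlib 3.10.9 (Python 3.11.15, pandas 2.3.3).

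The 8 genes were always named, with the 3 genes of most similar profile for each and up to 3 genes per list with the largest average response past the threshold. Genes named beyond that rule (DET1 by condition, DDB1, Cre01.g002500 for HL) were chosen after their values were seen. The members and lists were chosen with earlier results of these data known. Replicate numbers did not pair the libraries: the mean correlation of same-numbered deviations was 0.0169, with 50 of 273 pairs over 0.1.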

Additional observations from a re-analysis of the deposited data

Results flagged for a closer look

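The results below were singled out because a test of the difference itself, an interaction term in the edgeR model with Benjamini-Hochberg adjustment, passed the threshold. They are differences of log2 fold changes with TMM scaling, and the causes were not tested. Those that change sign or are no longer past the threshold with library-size scaling are named.

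The HL response in acetate minus that in HSM after 15 min on day 1 was 0.54 for PHOT1, 0.42 for CrCO, -1.04 for SPA1 and -1.90 for Cre02.g085050. After 60 min on day 1 it was 0.90 for PHOT1, 0.48 for UVR8, 0.85 for CrCO, -0.64 for SPA1 and -1.32 for Cre02.g085050. After 60 min on day 2 it was 0.90 for PHOT1, 0.74 for UVR8, 1.03 for CPH1, 0.68 for SPA1, 1.48 for CrCO and 0.40 for NF-YB, all of which except CrCO changed sign with library-size scaling, where CrCO was at 0.031 and not past the threshold. With that scaling PHOT1, CrCO and SPA1 were not past the threshold after 15 min on day 1. Nor were PHOT1 and UVR8 after 60 min on day 1.

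The HL response on day 2 minus that on day 1 was 0.54 for CPH1 in HSM after 15 min. In acetate after 15 min it was 0.52 for CPH1, 1.43 for SPA1, 2.11 for Cre02.g085050, 0.67 for NF-YB and -0.75 for NF-YC. In acetate after 60 min it was 0.49 for UVR8, 0.77 for CPH1, 1.147 for SPA1, 1.73 for Cre02.g085050, 0.64 for CrCO, 0.48 for NF-YB and -0.82 for NF-YC, and UVR8, CPH1, CrCO and NF-YB changed sign with library-size scaling. With that scaling SPA1 after 60 min in acetate was not past the threshold. Nor were CPH1 after 15 min in either medium and NF-YB after 15 min in acetate.

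The acetate response on day 2 minus that on day 1 was 0.47 for UVR8, -0.43 for CPH1, -0.66 for SPA1 and -0.72 for Cre02.g085050 in LL, and CPH1 changed sign with library-size scaling. After 15 min of HL it was -0.47 for PHOT1, -0.45 for CPH1, 0.57 for SPA1, 0.88 for Cre02.g085050 and -0.52 for CrCO. After 60 min of HL it was 0.73 for UVR8, 0.66 for SPA1 and 1.01 for Cre02.g085050, none of them past the threshold with library-size scaling. Nor with that scaling were SPA1 and Cre02.g085050 in LL, or PHOT1, CPH1, SPA1 and CrCO after 15 min of HL.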

How the results depend on the processing

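The 15-min HL rises of SPA1, Cre02.g085050 and CrCO kept their direction and passed the threshold in both media and on both days under every alternative run. Of the 272 values of the 8 genes, RLE scaling left 256 on the same side of the threshold, DESeq2 254, limma-voom 268, no filter 266, the other filter 246 and fits of only the libraries compared 245. The replicate block left 271 and passed 1 more value, and all 68 counts stayed within 1.5 times. The block for the bracket number left 269. Library-size scaling left 149, with 72 weaker, 13 stronger and 38 reversed (25 more changed sign uncalled), and its construction moves all genes together.

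With library-size scaling, reversed values of HL against LL at 60 min were NF-YB 0.053 in HSM on day 1, PHOT1 0.20, CPH1 0.33, NF-YB 0.66 and NF-YC 0.82 in HSM on day 2, and PHOT1 -0.26, CPH1 -0.074 and NF-YB -0.40 in acetate on day 2. For acetate against HSM they were PHOT1 0.33, CPH1 0.39, CrCO 0.052 and NF-YB 0.18 after 15 min of HL on day 1, PHOT1 0.21, CPH1 0.027, Cre02.g085050 0.97, NF-YB 0.17 and NF-YC 0.32 in LL at 1440 min, CPH1 0.036 and NF-YB 0.18 after 15 min of HL on day 2, Cre02.g085050 -0.063 after 60 min on day 2, and CPH1 0.075 and Cre02.g085050 0.30 on average. For 60 against 15 min in HSM they were CPH1 0.33 on day 1 and UVR8 0.43, CPH1 0.23 and NF-YB 0.19 on day 2. For the difference between media at 60 min on day 2 they were PHOT1 -0.46, UVR8 -0.63, CPH1 -0.40, SPA1 -0.73, Cre02.g085050 -1.03 and NF-YB -1.06. For the day difference in acetate at 60 min they were PHOT1 -0.74, UVR8 -0.32, CPH1 -0.040, CrCO -0.19 and NF-YB -0.35, and for the day difference of the acetate response in LL, CPH1 0.16. The average acetate values of PHOT1 and NF-YB were then -0.061 and -0.0074, not past the threshold.

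Counts of the 8 genes that moved with library-size scaling were 3 for HL in acetate on day 1 at 60 min, 5 and 4 for HSM and acetate on day 2 at 15 min, 2, 4, 1, 2 and 2 for acetate against HSM at LL 240 min, HL 15 and 60 min on day 1, LL 1440 min and HL 15 min on day 2, 2, 3 and 2 for 60 against 15 min in HSM day 1, acetate day 1 and HSM day 2, 2 and 1 for LL at 1440 against 240 min in HSM and acetate, 1 and 3 for the media difference on day 1 at 15 and 60 min, 0 and 3 for the day difference in HSM at 15 min and acetate at 60 min, and 1 and 1 for the acetate response in LL and after 15 min of HL. Counts of all genes moved to 2421 and 3217 for the media difference at 15 min on days 1 and 2, and to 328 for the day difference in HSM at 15 min. With the other filter, the HL averages of PHOT1 (0.031) and NF-YB (0.018) were not past the threshold and CPH1 was called lower (-0.18). The acetate response then differed between days for 1 gene in LL and 2 after 15 min of HL. With only the libraries compared, 3 genes were called for acetate after 60 min of HL on day 2, 1 for the media difference on day 2 at 15 min, 0 for the day difference in HSM at 15 min and 2 for the acetate response in LL, and all-gene counts were 1019 for LL at 1440 against 240 min in HSM and 231 and 272 for the day difference in HSM at 15 and 60 min. With DESeq2 the day difference in HSM at 15 min gave 4 and the acetate response after 60 min of HL gave 5.

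Leaving out single libraries gave HL averages of -0.13 to -0.028 for CPH1, 0.073 to 0.17 for NF-YB and 0.079 to 0.18 for PHOT1. Counts of the 8 genes ranged 2 to 6 for HL in acetate on day 1 at 60 min, 2 to 5 for acetate after 60 min of HL on day 1 and 3 to 5 on day 2, 3 to 6 for 60 against 15 min in acetate on day 2, 0 to 1 and 3 to 5 for LL in HSM and acetate, 2 to 5 and 0 to 1 for the media difference at 15 min on days 1 and 2, 0 to 2 for the day difference in HSM at 15 min, and 2 to 5 for the acetate response both in LL and after 15 min of HL. All-gene counts of the day difference in HSM ranged 951 to 2182 at 15 min and 458 to 1165 at 60 min, lowest without the third library in LL at 1440 min. The causes of these changes were not tested. With 3 libraries a condition and standard errors of 0.10 to 0.20 for single comparisons, smaller differences could not be told from replicate spread.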
